A study of Mus musculus with 18 samples.

Results

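The genes described here are 46 components of the machinery that licenses, starts and carries out DNA replication in mouse, chosen by name, and they are followed in Tcf21-lineage cardiac fibroblasts of the neonatal heart. All 46 of the 55453 gene symbols in the count table were found, and all 46 passed the filter on low counts that left 16170 symbols for testing. They were set in 6 role groups, namely origin licensing (11 genes), helicase activation (6), polymerases and primase (9), the clamp, its loader and other fork factors (10), nucleotide supply (5) and the copying of chromatin behind the fork (5).

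The data are bulk RNA sequencing of 18 libraries, 3 in each of 6 groups. Every pup, controls included, carried Tcf21-MerCreMer and Rosa-mTmG alleles and received tamoxifen at P1, so that cells expressing Tcf21 at that time, and their descendants, became GFP positive. Both alleles were heterozygous, and C57BL/6J is the strain that the methods name as purchased. Sorting for GFP followed digestion of the apical ventricle. The P2 baseline and P10 baseline groups were un-manipulated pups of those ages. The P2 sham and P2 resected groups had sham surgery or apical resection at P2 and were collected 3 days later, at P5. The P10 sham and P10 resected groups had the same procedures at P10 and were collected 3 days later, at P13. The P2 window is the regenerative period of the heart and the P10 window the non-regenerative one. Pup sex and the number of pups per library are not given in the sources used here, and the labels do not say that replicates came from separate animals. The p-values therefore measure the spread between these libraries, which may in part be technical. The cells are those labelled at P1 by an inducible Cre under Tcf21 control, and fibroblasts that were not labelled then are not in the data. The enzyme digestion before sorting ran longer for P10 to P13 hearts than for P2 to P5 hearts, and this cannot be told apart from age. The titles of P10 baseline replicates 2 and 3 end in a letter P that the other titles lack, and its meaning is not stated.

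Before a cell copies its DNA, the origin recognition complex with CDC6 and CDT1 loads the MCM2-7 helicase onto origins, and geminin holds CDT1 back once copying has begun. CDC45 and the GINS complex then switch the helicase on, polymerase alpha-primase lays down primers, polymerases delta and epsilon extend them on the PCNA clamp, and ribonucleotide reductase and thymidylate synthase supply the nucleotides. Many of these genes are transcribed late in G1 and in S phase under E2F factors, and cardiac fibroblasts are known to divide in the days after birth.

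The libraries held between 10462737 and 22980554 reads counted on genes, and the 46 genes took between 0.0861% and 0.422% of them. Levels are in CPM, that is, counts relative to the library's total after TMM normalization. Each of 10 fibroblast markers was detected in all 18 libraries, with Tcf21 at 202.5 to 447.5 CPM and Col1a1 at 4340 to 15580 CPM. Markers of other cells were also present, at 7.75 to 1152 CPM summed over 15 macrophage genes and 472 to 1756 CPM summed over 12 cardiomyocyte genes. Sums were 560 to 2041 CPM over 9 mural genes, 175 to 482 CPM over 9 endothelial genes and 30.1 to 102 CPM over 9 epicardial genes. In bulk libraries, fewer cells in S phase and less RNA of these genes per cell cannot be told apart.

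In un-manipulated fibroblasts the replication genes were lower at P10 than at P2 almost throughout the machinery. Of the 46 genes, 21 fell and 0 rose at an adjusted p under 0.05, where 1.68% of all genes tested fell and 2.71% rose. A log2 fold change below 0 was found for 45, against 51.2% of all genes. The median log2 fold change was -1.56, a median level 2.95-fold lower, against -0.03 over all genes tested. Tests are edgeR quasi-likelihood fits of all 18 libraries with Benjamini-Hochberg adjustment over the 16170 genes. The levels of P10 and P2 baseline libraries did not overlap for 42 of the 46 genes, against 12.1% of all genes that were lower at P10 without overlap, and the exceptions were Gins4, Pold2, Pole2 and Rpa3. The P10 libraries were thus below the P2 libraries for nearly all members, including many that did not pass the adjusted threshold.

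**Figure D1:**
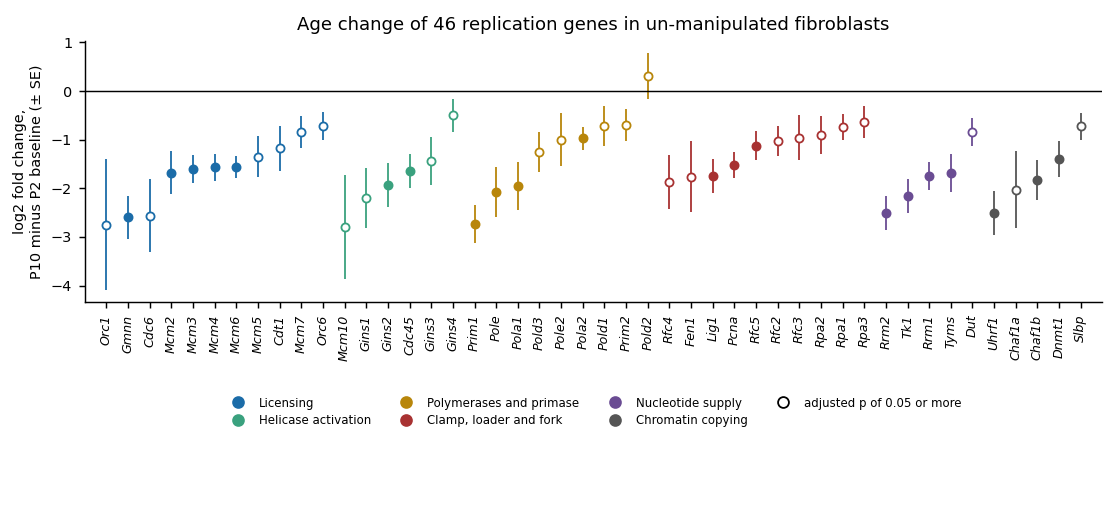
Log2 fold change of each of the 46 genes between P10 and P2 baseline fibroblasts (y axis, P10 minus P2, bars are the standard error of the edgeR fit), ordered within 6 role groups. Filled points have an adjusted p under 0.05. All points but Pold2 lie below 0, and the lowest are Mcm10 at -2.80, Orc1 at -2.75 and Prim1 at -2.74.

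The count of 21 was sensitive to single libraries. It was 11 without P2 baseline replicate 1, 13 without P10 baseline replicate 2 and 11 without P10 baseline replicate 3. Mcm3, Mcm4, Mcm6, Gmnn, Prim1, Rrm1, Rrm2, Tk1 and Uhrf1 passed the threshold in each of the 13 alternative analyses, and the other 12 called genes did not in at least 1 of them. Scaling by total counts alone moved the median of all genes by over 0.1, to -0.20, and the median of the members to -1.73. Other cell markers moved in the same comparison. Of 9 mural cell markers 3 rose, of 10 fibroblast markers 3 rose, and of 9 epicardial markers 1 fell. The mural sums were 560 to 884 CPM in P2 baseline and 1073 to 2041 CPM in P10 baseline libraries, without overlap. The summed epicardial markers were at 86.3 to 95.4 CPM in P2 baseline and 30.1 to 51.7 CPM in P10 baseline libraries, where Upk1b, Krt18, Wt1 and Lrrn4 had no count. Krt8 had no count in either group. Tbx18 was the largest part of the epicardial sums, with means of 80.8 CPM in P2 baseline and 36.9 CPM in P10 baseline libraries. Of 12 cardiomyocyte markers 0 were called, with sums of 1306 to 1756 CPM at P2 and 869 to 1013 CPM at P10, and 0 of 15 macrophage and 0 of 9 endothelial markers were called. Their part in the age change was not tested.

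Licensing factors load the helicase, and 5 of the 11 fell at P10 baseline, with a median log2 fold change of -1.57 for the group. Mcm6, a subunit of the MCM2-7 ring on chromosome 1 of GRCm38 (128331590 to 128359664), had the highest level per kilobase of exon of the licensing genes. It was at 329.5, 314 and 354 CPM in the P2 baseline libraries and at 98.8, 118 and 121 CPM in the P10 baseline libraries. The groups were far apart, at 333 ± 20.0 against 113 ± 12.1 CPM (SD, n = 3), a log2 fold change of -1.56 (standard error 0.23, edgeR adjusted p = 0.000899). Gmnn encodes geminin and lies on chromosome 13 (24751845 to 24761923). Its 3 P2 libraries were at 41.5, 38.6 and 50.02 CPM and its 3 P10 libraries at 11.7, 5.51 and 4.14 CPM. This was the largest change among the called licensing genes, at a log2 fold change of -2.60 (standard error 0.45, edgeR adjusted p = 0.00302). Mcm2, Mcm3 and Mcm4 fell as well, with log2 fold changes of -1.68, -1.61 and -1.57. The call of Mcm2 was lost without any single one of the 6 libraries. Mcm7 was at -0.84 and did not pass the threshold (edgeR adjusted p = 0.161), and its values are uncertain because the copy Gm5487 is nearly identical and 12.6% of its exon bases are shared with other genes.

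The factors that load the helicase were measured with wider errors in part. Orc1, the large subunit of the origin recognition complex on chromosome 4 (108579423 to 108614833), was at 8.84, 11.7 and 4.20 CPM in P2 baseline and 2.97, 0.374 and 0.296 CPM in P10 baseline libraries. Its log2 fold change of -2.75 was the largest of the licensing genes and had a standard error of 1.35 (edgeR adjusted p = 0.287), and it became -4.58 without P10 baseline replicate 1. Orc6 on chromosome 8 (85299632 to 85308278) had the smallest change, from 56.5, 47.4 and 57.9 CPM to 30.0, 23.7 and 44.6 CPM, a log2 fold change of -0.72 (standard error 0.29, edgeR adjusted p = 0.177). Cdc6 was at 42.5, 38.5 and 45.0 CPM at P2 and 7.95, 8.19 and 5.13 CPM at P10, at a log2 fold change of -2.56 (standard error 0.75, edgeR adjusted p = 0.0631). None of the loading factors Orc1, Orc6, Cdc6 and Cdt1 passed the threshold in this comparison, although the P10 libraries were below the P2 libraries for each.

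Helicase activators complete the motor, and 2 of the 6, Cdc45 and Gins2, fell at P10 baseline. Cdc45, the factor that travels with the helicase, had a log2 fold change of -1.65 (standard error 0.35, edgeR adjusted p = 0.0117), from 34.1 ± 5.81 to 10.9 ± 1.30 CPM (SD, n = 3). Its call was lost without P2 baseline replicate 1 or P10 baseline replicate 3. Mcm10, a scaffold for origin firing on chromosome 2 (4989714 to 5012791), had the largest change of all 46 genes with every library in the fit, from 20.0, 22.3 and 22.3 CPM to 5.10, 0 and 4.24 CPM. That log2 fold change of -2.80 had a standard error of 1.08 and did not pass (edgeR adjusted p = 0.163), and without P10 baseline replicate 1 it was -3.40, less than the change of Orc1. The 4 subunits of GINS, which are present once each in the complex, had log2 fold changes between -2.20 and -0.50. Gins1 and Gins3 were at log2 fold changes of -2.20 and -1.43, and neither was called. Without P10 baseline replicate 2, where Gins3 was at 12.5 CPM against 2.25 and 3.26 CPM in the other P10 libraries, its change was -2.57 and passed (edgeR adjusted p = 0.00517). Gins2 had -1.93 (edgeR adjusted p = 0.0209), a call lost without P2 baseline replicates 1 or 3 or P10 baseline replicates 2 or 3, and 67.3% of its exon bases are shared with Gse1 on the other strand. Gins4, on chromosome 8 (23226616 to 23237659), was at 56.6, 52.4 and 92.1 CPM in P2 and 28.6, 58.2 and 55.4 CPM in P10 libraries. These overlapped, and the log2 fold change of -0.50 (standard error 0.34) was within the spread (edgeR adjusted p = 0.473). It became -0.20 without P2 baseline replicate 3 and -0.24 without P10 baseline replicate 1. Per kilobase of exon, Gins4 was at 49.7 ± 16.2 CPM in P2 baseline libraries against 8.27 ± 0.0841 CPM for Gins1 (SD, n = 3). Over all 9 P2 window libraries the ratio of the Gins1 to the Gins4 level per kilobase was 0.122 to 0.318 with a median of 0.196, and over the 9 P10 window libraries 0.0208 to 0.160 with a median of 0.0717. The 2 ranges overlap in part. This ratio and those below were chosen after the values were seen and are given as a description. They divide by the union of all annotated exons of each gene, so comparisons between genes depend on the annotated lengths.

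Among polymerase and primase genes 4 of 9 fell. Prim1 encodes the catalytic small subunit of primase and lies on chromosome 10 (128015168 to 128030037). Its P2 baseline libraries were at 56.7, 43.3 and 66.1 CPM and its P10 baseline libraries at 6.73, 9.26 and 8.88 CPM. The lowest P2 library was well above the highest P10 library, and the log2 fold change was -2.74 (standard error 0.39, edgeR adjusted p = 0.000641). Prim2, the large primase subunit, went from 40.8, 35.1 and 42.3 CPM to 31.1, 14.3 and 27.7 CPM, a log2 fold change of -0.69 (standard error 0.32) that did not pass (edgeR adjusted p = 0.260) and became -0.42 without P10 baseline replicate 2. Per kilobase, the Prim1 level was 1.21 to 2.40 times the Prim2 level in the 9 P2 window libraries, with a median of 1.55. In the 9 P10 window libraries it was 0.332 to 1.25 times, with a median of 0.580, so that Prim2 was the higher of the primase subunits in most P10 libraries. Pola1 and Pola2, the other subunits of polymerase alpha-primase, fell with log2 fold changes of -1.95 and -0.97. Both calls were lost without P2 baseline replicate 1, P2 baseline replicate 2 or P10 baseline replicate 3. Pola1 was also not called without P10 baseline replicate 2, nor Pola2 without P2 baseline replicate 3. Pole, the catalytic subunit of the leading strand polymerase, had -2.08 (edgeR adjusted p = 0.0287), and its call held only in the fit without P10 baseline replicate 1 among those that left out a library.

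Pold2, an accessory subunit of polymerase delta on chromosome 11 (5872180 to 5878292), was the single member with a positive baseline change. It was at 61.9, 40.2 and 49.7 CPM in P2 and at 21.7, 77.7 and 89.0 CPM in P10 baseline libraries. The P10 libraries thus lay on both sides of the P2 libraries, and the log2 fold change of 0.31 (standard error 0.48, edgeR adjusted p = 0.804) became -0.02 without P10 baseline replicate 3. Across all 18 libraries Pold2 lay between 21.7 and 102 CPM. Pold1, the catalytic subunit, and Pold3 were at -0.72 and -1.25 and were not called.

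**Figure D2:**
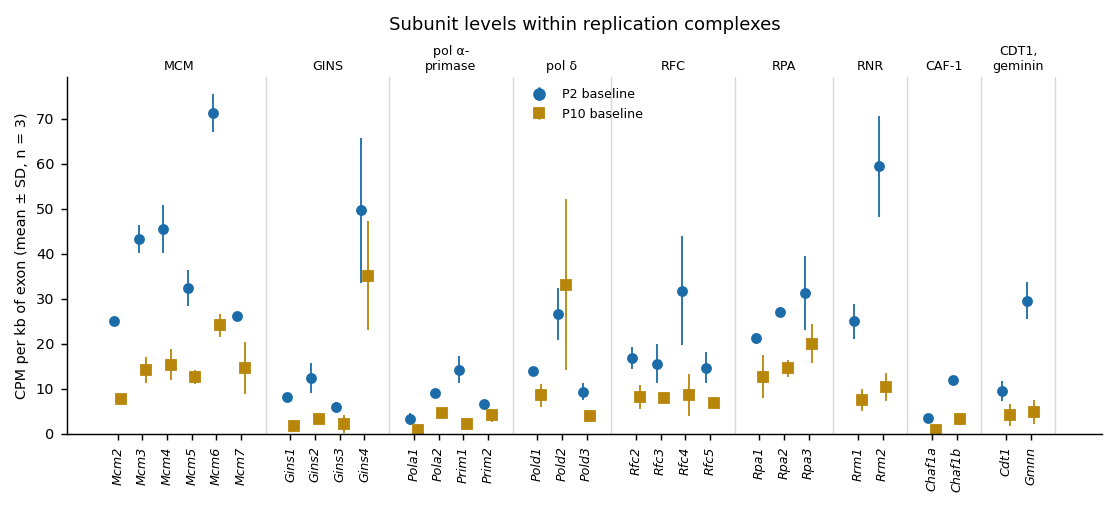
Level of each subunit per kilobase of exon (y axis, CPM per kb, mean ± SD of 3 libraries) in P2 baseline (circles) and P10 baseline (squares) fibroblasts, for genes of 8 protein complexes and for Cdt1 and Gmnn. Mcm6 is the highest point at P2, at 71.3, and the P2 and P10 error bars overlap for Gins4, Pold2 and Rpa3.

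The clamp, its loader, the single-strand binding protein RPA and the enzymes that join Okazaki fragments are the last group at the fork. Of these 10 genes 3 fell, and their median log2 fold change was -1.07. Pcna encodes the sliding clamp and lies on chromosome 2 (132249162 to 132253314). It was at 128, 86.3 and 138 CPM in P2 and at 55.0, 29.1 and 39.4 CPM in P10 baseline libraries. The groups were apart, at a log2 fold change of -1.51 (standard error 0.27, edgeR adjusted p = 0.00382), and the values are uncertain to the extent that reads were shared with the copy Pcna-ps2. Lig1, the ligase of the lagging strand, fell from 79.8 ± 4.67 to 23.8 ± 6.58 CPM (SD, n = 3), a log2 fold change of -1.75 (standard error 0.35, edgeR adjusted p = 0.00905), and was not called without P10 baseline replicate 2. Rfc4, a small subunit of the clamp loader on chromosome 16 (23113943 to 23127737), had the largest change of the group, from 39.5, 36.8 and 70.1 CPM to 7.04, 11.99 and 21.1 CPM. Its log2 fold change of -1.87 (standard error 0.56) did not pass (edgeR adjusted p = 0.0663). Of the other loader genes Rfc5 fell, at -1.12, a call that held without P2 baseline replicate 2 but was lost without any other single library, and Rfc2 and Rfc3 were at -1.02 and -0.96. The 3 RPA genes were at -0.74, -0.90 and -0.64, and 0 of them passed. Rpa3 on chromosome 6 (8255936 to 8259173) had the smallest change, from 35.6, 26.1 and 44.8 CPM to 18.99, 21.0 and 28.4 CPM, with overlapping groups (edgeR adjusted p = 0.318). Fen1, the flap nuclease, had 0.493 to 3.23 CPM in baseline libraries. Its exons share 84.2% of their bases with other genes, mostly with Gm10143 on the other strand, and reads on several genes were left out by the counting, so its level cannot be read from these counts.

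Of the 5 nucleotide supply genes 4 fell. Rrm2, the regulated small subunit of ribonucleotide reductase on chromosome 12 (24708241 to 24714146), was at 192, 131 and 172 CPM in P2 and at 38.3, 21.1 and 27.4 CPM in P10 baseline libraries. It had the highest level per kilobase averaged over all libraries, although Dut was higher per kilobase in the 3 P10 groups, and the largest change of this group, at a log2 fold change of -2.51 (standard error 0.35, edgeR adjusted p = 0.000590), and a near-identical copy, Gm48455, could have taken part of its reads. Rrm1, the large subunit, fell from 276 ± 42.9 to 82.2 ± 27.0 CPM (SD, n = 3), a log2 fold change of -1.75 (standard error 0.29, edgeR adjusted p = 0.00197). The Rrm2 level per kilobase was 1.71 to 2.75 times that of Rrm1 in the 9 P2 window libraries and 0.566 to 1.71 times in the 9 P10 window libraries, with medians of 2.13 and 1.20. These ratios rest on exon lengths of 2771 bases for Rrm2 and 11012 bases for Rrm1. In CPM, without division by length, Rrm1 was above Rrm2 in every library. Tk1, the thymidine kinase of dividing cells, fell by 2.16 on the log2 scale (standard error 0.35, edgeR adjusted p = 0.00197). Tyms, thymidylate synthase, had -1.69, a call lost without P2 baseline replicates 1 or 3 or P10 baseline replicates 2 or 3, and 11 near-identical copies make its values uncertain. Dut on chromosome 2 (125247190 to 125258608), whose enzyme removes dUTP, had the smallest change. It was at 62.3, 53.3 and 72.9 CPM and then 24.6, 34.6 and 46.6 CPM, a log2 fold change of -0.84 (standard error 0.29, edgeR adjusted p = 0.116).

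Of the genes that restore DNA methylation and histones behind the fork, 3 of 5 fell. Uhrf1 recognises hemimethylated DNA and brings in DNMT1, and it lies on chromosome 17 (56303321 to 56323486). Its P2 baseline libraries were at 103, 61.5 and 105 CPM and its P10 baseline libraries at 20.6, 16.6 and 10.1 CPM, without overlap. The log2 fold change was -2.51 (standard error 0.45, edgeR adjusted p = 0.00384), with a near-identical copy, Gm5648, in the genome. Dnmt1, the maintenance methyltransferase, had -1.40 (edgeR adjusted p = 0.0438), and Chaf1b, a subunit of the histone chaperone CAF-1, had -1.83 (edgeR adjusted p = 0.0179). Both calls were lost without P2 baseline replicate 1, P2 baseline replicate 2, P10 baseline replicate 2 or P10 baseline replicate 3. The partner subunit Chaf1a was at -2.03 and was not called, and 52.5% of its exon bases are shared with Ubxn6 on the other strand. Slbp, which binds the stem loop of histone messages and lies on chromosome 5 (33634952 to 33652574), had the highest level per kilobase averaged over all libraries and the smallest change of this group. It was at 122, 105 and 126 CPM in P2 and 63.6, 63.4 and 86.4 CPM in P10 baseline libraries (log2 fold change -0.73, standard error 0.28, edgeR adjusted p = 0.166).

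**Figure D3:**
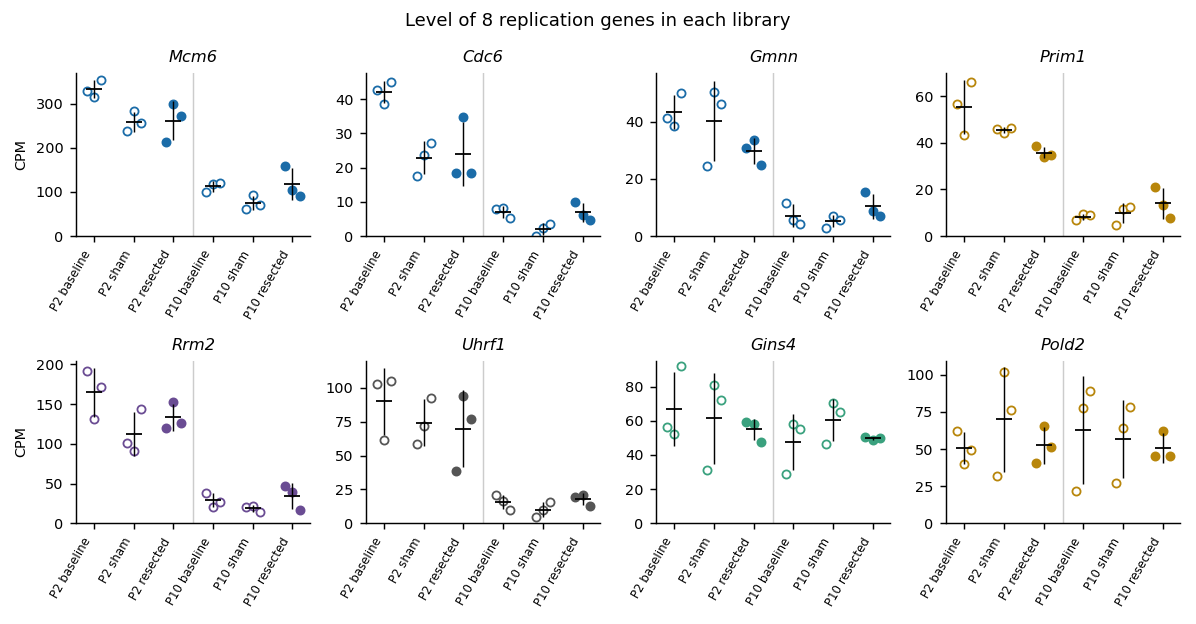
CPM of 8 replication genes in each of the 18 libraries (y axis, linear and starting at 0; points are libraries, bars the mean ± SD of 3). Mcm6, Cdc6, Gmnn, Prim1, Rrm2 and Uhrf1 are lower in every P10 library than in every P2 library, while Gins4 and Pold2 overlap between the ages.

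The promoters of these genes were compared for the E2F words TTTCCCGC and TTTGGCGC, because E2F factors are known regulators of replication genes. RefSeq windows on GRCm38.p6, from 250 bases before to 50 bases after the start, were found for 38 of the 46 genes, which gave 46 windows. On either strand, 1 of these words was present in 13 of the 46 windows (28.3%), against 1.56% of 32851 windows of all genes, and 13 of the 38 genes had a match (34.2%). These were Mcm3, Mcm5, Mcm6, Mcm7, Cdc6, Cdt1, Gins3, Pola1, Pold1, Pold3, Pole2, Rfc3 and Dnmt1. The word TTTGAA of the cell cycle homology region, which is typical of genes expressed in G2 and M phase, was in 6 of the 46 windows of these genes and in 17.9% of all windows. A match is a description of the letters and not a bound site. The 250 bases upstream of the start are shown for Mcm5, Mcm6 and Pola1, whose matches lie outside the transcribed part. The sequences are from RefSeq, 5′ to 3′ on the strand of the gene, with the E2F words of either orientation in capitals.
Mcm5, plus strand, chr8:75109259-75109508: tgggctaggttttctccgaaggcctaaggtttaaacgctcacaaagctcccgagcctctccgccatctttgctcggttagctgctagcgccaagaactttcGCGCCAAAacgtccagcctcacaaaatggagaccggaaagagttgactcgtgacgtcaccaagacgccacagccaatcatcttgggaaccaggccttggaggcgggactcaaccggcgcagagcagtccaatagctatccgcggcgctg
Mcm6, minus strand, chr1:128359706-128359955: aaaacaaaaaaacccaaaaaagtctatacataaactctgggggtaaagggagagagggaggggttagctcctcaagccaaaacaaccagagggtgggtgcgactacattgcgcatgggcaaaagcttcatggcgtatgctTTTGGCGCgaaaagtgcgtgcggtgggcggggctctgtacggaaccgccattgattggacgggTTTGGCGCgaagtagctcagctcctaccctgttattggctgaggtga
Pola1, minus strand, chrX:93632156-93632405: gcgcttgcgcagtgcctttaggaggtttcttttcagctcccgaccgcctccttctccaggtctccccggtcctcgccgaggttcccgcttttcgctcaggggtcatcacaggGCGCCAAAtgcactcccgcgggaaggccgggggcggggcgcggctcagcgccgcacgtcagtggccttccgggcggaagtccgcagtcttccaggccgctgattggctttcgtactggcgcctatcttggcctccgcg
The Mcm6 window holds 2 matches, which begin 110 and 47 bases before the start, and both are TTTGGCGC as read on the gene's strand. The Mcm5 and Pola1 windows hold 1 match each, in the opposite orientation, at 149 and 138 bases before the start. All 3 genes had negative baseline log2 fold changes, of -1.56 for Mcm6, -1.35 for Mcm5 and -1.95 for Pola1, and Mcm5 was not called (edgeR adjusted p = 0.0782).

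The age change was also measured after surgery, between the sham groups and between the resected groups, whose libraries share the fit with the baseline libraries. Between the sham groups 25 of the 46 genes fell and 0 rose (1.65% of all genes fell and 1.54% rose). Between the resected groups 7 fell and 0 rose (0.235% of all genes fell and 0.625% rose). The median log2 fold change was -1.56 after sham surgery and -1.04 after resection, and 46 of 46 genes were below 0 in both, against 54.3% and 52.6% of all genes. The groups did not overlap for 38 genes after sham surgery and 36 after resection, where 7.61% and 12.7% of all genes were lower at P10 without overlap. Called in all 3 age comparisons were Mcm4, Mcm6, Cdc45, Rrm1, Rrm2, Tk1 and Uhrf1. The baseline and sham comparisons had 18 called genes in common, 85.7% of the 21 and 72.0% of the 25, and the 7 genes called after resection were 33.3% and 28.0% of those lists. Over the 46 genes, which are not independent of each other, the log2 fold changes at baseline and after sham surgery had Pearson's r of 0.863 and Spearman's rho of 0.856. For baseline and resected fibroblasts r was 0.767 and rho 0.742, and for sham and resected fibroblasts 0.820 and 0.815.

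In both comparisons after surgery 0 markers of the 6 cell types were called by edgeR. The summed epicardial markers were at 68.5 to 77.1 CPM in P2 sham and 30.8 to 40.0 CPM in P10 sham libraries, without overlap, and the cardiomyocyte markers at 1166 to 1515 against 474 to 1183 CPM. After resection the epicardial sums were 63.7 to 82.4 against 50.1 to 102 CPM and the cardiomyocyte sums 472 to 1250 against 495 to 942 CPM, with overlap in both. The macrophage sums were 7.75 to 199 against 105 to 390 CPM after sham surgery. They were 76.4 to 477 against 83.0 to 1152 CPM after resection, again with overlap in both. The median log2 fold changes of the macrophage markers were 1.41 and 1.16. Tbx18 was the largest part of the epicardial sums, with means of 61.2 CPM in P2 sham and 29.6 CPM in P10 sham libraries. Its means were 64.9 CPM in P2 resected and 49.5 CPM in P10 resected libraries. The part of these markers in the age changes was not tested.

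Among the called genes the largest change after sham surgery was that of Cdc6. This partner of the origin recognition complex on chromosome 11 (98907801 to 98923940), which has a near-identical copy, Gm9430, was at 17.6, 23.8 and 27.2 CPM in P2 sham and at 0, 2.46 and 3.54 CPM in P10 sham libraries. Its log2 fold change of -3.51 (standard error 0.79, edgeR adjusted p = 0.0190) was lost as a call without P2 sham replicate 3 or P10 sham replicate 2. Gmnn fell by 2.97 on the log2 scale (edgeR adjusted p = 0.00129), Uhrf1 by 2.88 (edgeR adjusted p = 0.00150), Chaf1b by 2.76 (edgeR adjusted p = 0.00150) and Tk1 by 2.76 (edgeR adjusted p = 0.000401). The last 4, with Mcm6, Lig1 and Rrm2, were called in each of the 13 alternatives. The count of 25 became 14 without P2 sham replicate 3 and 14 without P10 sham replicate 1, the library with the lowest summed level of the members, where for example Mcm2 was at 7.89 CPM against 47.0 and 34.2 CPM in the other P10 sham libraries.

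After resection the largest called changes were Uhrf1 at -1.98 (edgeR adjusted p = 0.0378) and Rrm2 at -1.95 (edgeR adjusted p = 0.00925). Rrm2 was at 121, 152 and 127 CPM in P2 resected and 47.1, 39.5 and 16.7 CPM in P10 resected libraries, so that its lowest P2 library was over its highest P10 library by a wide margin. The 7 calls depended on single libraries. The count was 4, 0 and 1 without P2 resected replicates 1, 2 and 3, and 1 without either P10 resected replicate 2 or replicate 3. Among all genes, 29, 8 and 8 were called lower without P2 resected replicates 1, 2 and 3. The counts were 38 and 9 without P10 resected replicates 2 and 3, against 38 with every library.

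Over both windows, 9 libraries against 9, 42 of the 46 genes fell and 0 rose, where 6.39% of all genes fell and 7.11% rose, with a median log2 fold change of -1.42 against -0.06 over all genes. All 46 were below 0, as were 54.2% of all genes. Not called were Orc1 (-2.26, edgeR adjusted p = 0.0609), Pold3 (-0.65, edgeR adjusted p = 0.0713), Gins4 (-0.22, edgeR adjusted p = 0.517) and Pold2 (-0.01, edgeR adjusted p = 1.00). The calls of 36 genes held in each of 24 alternatives, and the exceptions were Orc6, Pold1, Pole2, Rpa3, Fen1 and Chaf1a. In 23 of the 46 genes every P10 library was below every P2 library, which was so for 1.36% of all genes. The window comparison uses the same libraries as the 3 age comparisons above and is no further test of them. Of the 12 cardiomyocyte markers 6 fell in it, with sums of 472 to 1756 CPM in the P2 window and 474 to 1183 CPM in the P10 window. Of 10 fibroblast markers 1 fell and 3 rose, of 9 mural markers 1 fell and 3 rose, of 15 macrophage markers 2 rose, of 9 epicardial markers 1 fell and of 9 endothelial markers 0 were called. The part of these markers was not tested.

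**Figure D4:**
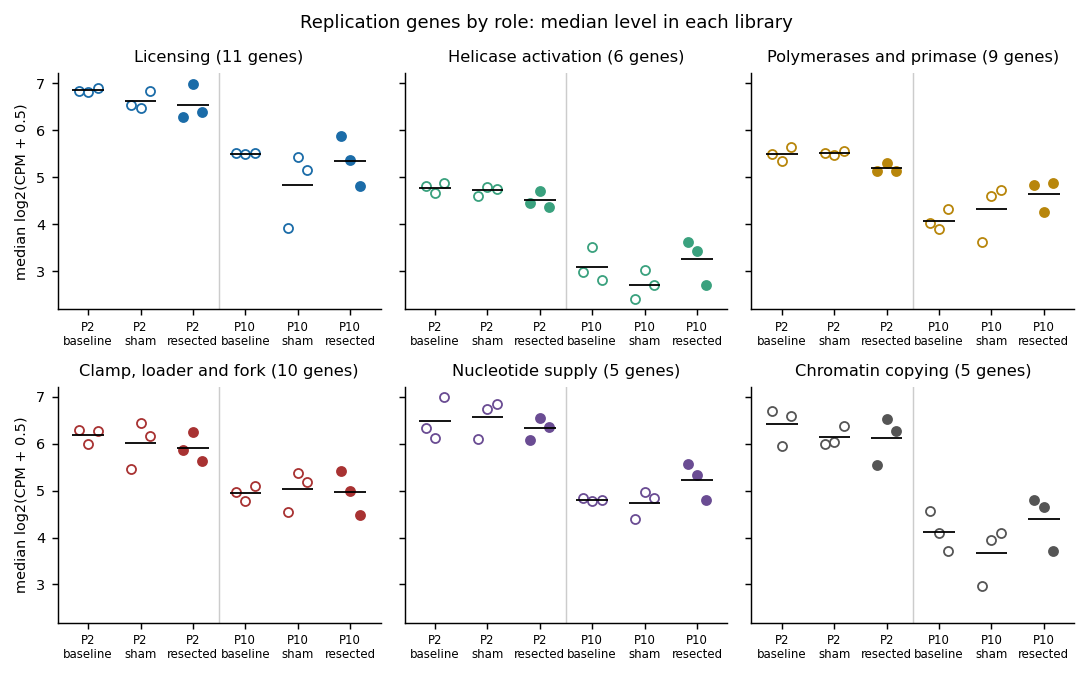
Median log2(CPM + 0.5) of the genes of each of the 6 role groups in each library (y axis, the same in all panels; points are libraries, lines the mean of 3). In every panel P10 libraries lie below the P2 libraries of the same treatment, and P10 sham replicate 1 is the lowest library of the licensing group.

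The steps from baseline to sham within a window, which hold both surgery and 3 days of growth, had medians nearer 0 than the step from P5 to P10. That step sets un-manipulated P10 baseline pups against operated P2 sham pups, so it also differs in surgery. P2 sham against P2 baseline gave 0 called members by edgeR and 0 by DESeq2, with 1 at an unadjusted p under 0.05 (7.6% of all genes) and a median log2 fold change of -0.13, which became 0.04 without P2 sham replicate 1. Among all 16170 genes, edgeR called 0 in this step and DESeq2 called 94 higher and 44 lower. P10 sham against P10 baseline also gave 0 by edgeR and 0 by DESeq2, with 2 at an unadjusted p under 0.05 (7.4% of all genes) and a median of -0.31, which became -0.08 without P10 sham replicate 1. Of all genes 0.00618% rose and 0 fell in this step by edgeR, and DESeq2 called 58 higher and 66 lower. The 2 members at an unadjusted p under 0.05 were Mcm6 at -0.59 (edgeR adjusted p = 0.646) and Cdc6 at -1.83 (edgeR adjusted p = 0.649). P10 baseline against P2 sham, the neighbours in age, differed in 11 genes, all lower, where 0.631% of all genes fell and 0.693% rose, and the median was -1.19. These were Mcm6, Pcna, Tyms, Rrm1, Prim1, Tk1, Rrm2, Gmnn, Cdc45, Chaf1b and Uhrf1. The count was 19 and 6 without P2 sham replicates 1 and 3, and 3 without either P10 baseline replicate 2 or replicate 3. It was 0 when only these 2 groups entered the fit, where 0 of all 13578 genes tested were called lower and 1 higher. Among all genes, the 102 called lower became 253 and 39 without P2 sham replicates 1 and 3. They became 24 and 25 without P10 baseline replicates 2 and 3. Between these groups the epicardial sums were 68.5 to 77.1 CPM at P2 sham and 30.1 to 51.7 CPM at P10 baseline, and the cardiomyocyte sums 1166 to 1515 and 869 to 1013 CPM, both without overlap, with 0 markers of the 6 cell types called, and their part was not tested. Tbx18 was the largest part of these epicardial sums, with means of 61.2 CPM in P2 sham and 36.9 CPM in P10 baseline libraries. These 3 comparisons share libraries with each other, and the differences between their medians were not tested.

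Resection was compared with sham surgery to ask whether injury changed the replication genes in either window. At P2, 0 of 46 genes were called by edgeR, 0 by DESeq2 and 0 had an unadjusted p under 0.05, where 4.51% of all genes had one. Of all 16170 genes edgeR called 0 and DESeq2 called 24 higher and 1 lower. The median log2 fold change was -0.20 against 0.00 over all genes, and it became -0.10 and -0.08 without P2 sham replicates 2 and 3. It was -0.32 when P2 resected replicate 2 was left out and -0.12 when replicate 3 of that group was. Gins3, Prim1 and Prim2 were lower in all 3 resected than in all 3 sham libraries, 6.52% of members against 2.85% of all genes. The cardiomyocyte markers summed to 472, 1130 and 1250 CPM in P2 resected and 1352, 1515 and 1166 CPM in P2 sham libraries, and the macrophage markers to 477, 212 and 76.4 against 7.75, 105 and 199 CPM. The median log2 fold changes of these marker lists were -0.74 and 1.08, 0 markers of the 6 cell types were called by edgeR, and their part was not tested. Prim1 was at 38.7, 34.0 and 34.8 CPM after resection and 45.8, 44.3 and 46.5 CPM after sham surgery (log2 fold change -0.35, standard error 0.36, edgeR adjusted p = 1.00).

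At P10, 0 of 46 genes were called by edgeR and 0 by DESeq2, where of all 16170 genes edgeR called 0 and DESeq2 called 37 higher and 2 lower. An unadjusted p under 0.05 was reached by 9 members, all higher after resection, where 3.43% of all genes were higher at this level. They were Orc1, Cdc6, Gmnn, Mcm6, Pole, Lig1, Rrm2, Tk1 and Chaf1b, with an adjusted p of 1.00 each. Of the 46 genes 11 had a log2 fold change below 0, against 47.5% of all genes, and the median was 0.42 against 0.02 over all genes. This median became 0.19 without P10 sham replicate 1 and 0.18 without P10 resected replicate 1. The medians of the role groups were 0.75 for chromatin copying, 0.65 for nucleotide supply, 0.57 for licensing, 0.46 for helicase activation, 0.25 for polymerases and primase and -0.01 for the clamp and fork genes.

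Chaf1b was at 27.5, 24.8 and 8.62 CPM in P10 resected and 7.29, 13.4 and 5.56 CPM in P10 sham libraries, with 1.22 as the log2 fold change (standard error 0.41, edgeR adjusted p = 1.00). Resected replicates 1 and 2 were above all sham libraries and replicate 3 was among them. Cdc6 was at 10.0, 6.23 and 4.66 CPM after resection and 0, 2.46 and 3.54 CPM after sham surgery, where the log2 fold change was 1.81 (standard error 0.75, edgeR adjusted p = 1.00). Gmnn was at 15.3, 8.90 and 7.07 CPM against 2.85, 6.92 and 5.71 CPM, at a log2 fold change of 1.02 (standard error 0.43, edgeR adjusted p = 1.00) that became 0.63 without P10 resected replicate 1. Cdc6 and Gmnn, with Orc1, Pola1, Pola2 and Fen1, were the 6 of 46 members that were higher in every resected than in every sham library, which was so for 5.63% of all genes, and of these the Fen1 counts are limited by the exon overlap given above. Orc1 was at 3.03, 3.75 and 1.17 CPM against 0, 0.388 and 0.566 CPM. P10 resected levels of both genes were below those of the P2 window, where Cdc6 was at 17.6 to 45.0 CPM and Gmnn at 24.4 to 50.6 CPM.

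**Figure D5:**
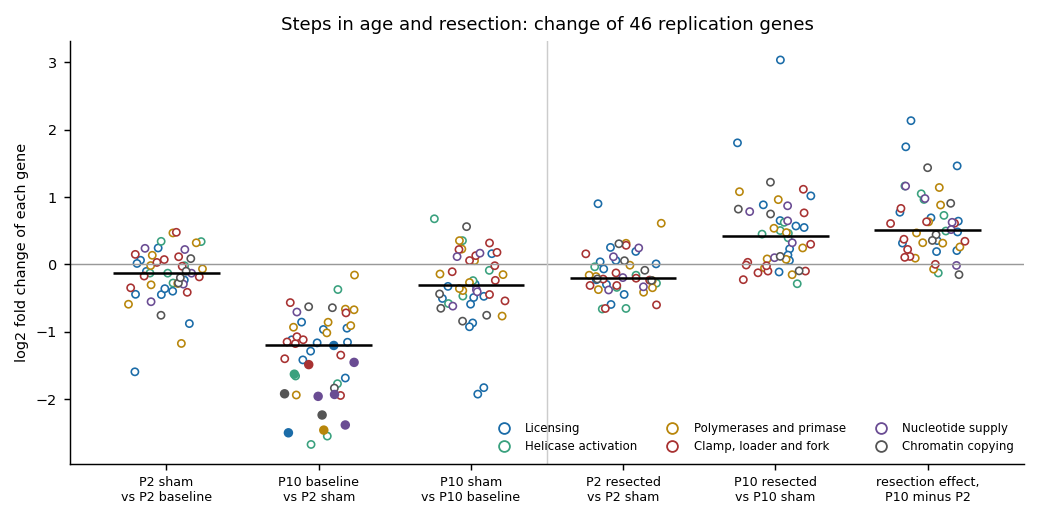
Log2 fold change of each of the 46 genes (points, coloured by role group, filled where the adjusted p is under 0.05) in 6 comparisons, with the median as a line. The medians are -0.13, -1.19 and -0.31 for the steps in age, which also differ in surgery. They are -0.20 and 0.42 for resection at P2 and at P10, and 0.51 for the difference between these resection effects.

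An interaction term compared the effect of resection at P10 with that at P2, which is also the difference between the age effects after resection and after sham surgery. By edgeR 0 members were called, by DESeq2 0, and 3 had an unadjusted p under 0.05, namely Gmnn, Tk1 and Chaf1b (log2 differences of 1.46, 1.16 and 1.44, edgeR adjusted p = 1.00 each). An unadjusted p under 0.05 was reached by 2.88% of all genes. Among all 16170 genes, edgeR called 0 for this term and DESeq2 called 16 higher and 8 lower. Of the 46 genes 42 had a positive difference, against 52.3% of all genes, with a median of 0.51. With both ages together the resection effect gave 0 called members by edgeR and 0 by DESeq2, with 2 (Pole and Rrm2) at an unadjusted p under 0.05 (5.78% of all genes) and a median of 0.10. With 1 library left out this median lay between 0.00301 (without P10 resected replicate 1) and 0.21 (without P10 resected replicate 3). Among all 16170 genes, edgeR called 0 for this effect and DESeq2 called 64 higher and 4 lower. P10 resected fibroblasts also did not differ from P10 baseline fibroblasts beyond the threshold in any member (0 by edgeR and by DESeq2, 1 at an unadjusted p under 0.05 against 6.48% of all genes, median 0.12), where 0.00618% of all genes fell and 0.0928% rose. By DESeq2, 149 of all genes were called higher and 26 lower between these groups. The median of 0.12 became 0.00399 without P10 resected replicate 1, 0.21 without P10 baseline replicate 3 and 0.26 without P10 resected replicate 3.

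Other markers moved beside the P10 resection values. The 15 macrophage markers summed to 494, 1152 and 83.0 CPM in P10 resected and 105, 389.7 and 313 CPM in P10 sham libraries, and 0 of 15 were called. The 9 epicardial markers summed to 102, 70.8 and 50.1 CPM after resection and 40.0, 31.8 and 30.8 CPM after sham surgery, without overlap, and 0 of 9 were called. Krt8 and Lrrn4 had no count in the P10 sham libraries, and Tbx18 had the highest mean of the 9, at 49.5 CPM after resection and 29.6 CPM after sham surgery. The 9 endothelial markers summed to 482, 307 and 347 CPM after resection and 474, 379.9 and 256 CPM after sham surgery, and 0 of 9 were called. Tek, the largest part of this sum, had means of 249.5 and 326 CPM, while Kdr was at 32.5 and 5.07 CPM and Pecam1 at 28.2 and 13.4 CPM. The median log2 fold changes of the marker lists were 1.47 for endothelial, 3.15 for epicardial and 0.99 for macrophage genes. The 46 members summed to 1830, 1547 and 1123 CPM after resection and 907.5, 1470 and 1358 CPM after sham surgery, so that these sums overlapped. The part of these markers in the resection values was not tested.

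Of 40 further replication genes outside the 46, such as other licensing, checkpoint and histone chaperone genes, all were tested. At baseline 6 fell and 0 rose, with a median log2 fold change of -0.98, where 1.68% of all genes fell. After sham surgery 6 fell and after resection 0, where 1.65% and 0.235% of all genes fell. Over the windows 19 fell with a median of -0.83, where 6.39% of all genes fell. The largest called baseline changes were Asf1b, Dck and Dbf4. Asf1b, a chaperone that hands histones to CAF-1, was at 61.7, 54.0 and 78.7 CPM in P2 and 6.25, 6.15 and 11.6 CPM in P10 baseline libraries, a log2 fold change of -3.02 (standard error 0.49, edgeR adjusted p = 0.00183). Dck, deoxycytidine kinase, was at 43.2, 38.2 and 46.1 CPM and then 8.49, 3.37 and 15.6 CPM, at a log2 fold change of -2.22 (standard error 0.50, edgeR adjusted p = 0.0166). Dbf4, the activating subunit of the CDC7 kinase, was at 20.7, 27.8 and 19.3 CPM and then 12.01, 3.64 and 3.65 CPM, at a log2 fold change of -1.81 (standard error 0.49, edgeR adjusted p = 0.0429). The groups of all 3 genes were apart at baseline. After resection at P10, Asf1b was at 17.8, 20.0 and 4.97 CPM against 2.697, 9.05 and 6.79 CPM after sham surgery (log2 fold change 1.21, standard error 0.46, edgeR adjusted p = 1.00).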

How the data were processed

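RNA of GFP positive cells was amplified with a SMARTer kit and sequenced from 1 end. Per the study's methods and the submitters' processing notes, the authors trimmed reads with fastp 0.20.0, mapped them with STAR 2.7.0f to GRCm38.p6 and counted them on GENCODE M22 exons by gene name with featureCounts (Subread 1.6.4), without strand. The deposited values are whole-number counts, not normalized. By that tool's default, reads on several genes or places are not counted, which lowers genes with overlaps or near-identical copies: 16 members share exon bases with another gene, 3 of them over 20%, and 8 have a copy of at least 300 bases at 95% identity or more (blastn 2.17.0), and their values are uncertain. Positions and exon lengths are from GENCODE M21, promoters from RefSeq. An exon length is the union of all annotated exons of a gene, so rankings of genes by level per kilobase depend on the annotation.

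From these counts, TMM factors, filterByExpr (minimum count 10, minimum total 15) and a quasi-likelihood fit with a mean per group were computed in edgeR 4.0.16 (R 4.3.3), with 12 comparisons called at a Benjamini-Hochberg adjusted p under 0.05. The methods name DESeq2, which was run beside it (version 1.42.0). Alternatives were RLE and total count scaling, no filter, voom with quality weights (limma 3.58.1), only the groups compared, a replicate block and each library left out. Replicates differed by a chi-square per gene of 33 to 304 over 18 pairs, so none was a duplicate. The members, lists and tests were chosen with earlier results of these data known. In each role group the members with the largest and smallest baseline change and the highest level per kilobase were described in every library, with any member whose baseline change was positive and the 3 largest called changes of the further list, and other members where a comparison turned on them.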

Additional observations from a re-analysis of the deposited data

How the results depend on the processing

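No member was called higher in any alternative of the 12 comparisons, and the counts of 0 after resection held in every alternative, which with 3 libraries a group does not show that levels were equal. Counts of members that fell moved with the method. At baseline the 21 became 36 with voom, and 11 to 19 with a library left out. After sham surgery the 25 became 7 when only the groups compared were fitted, and 14 to 22 with a library left out. After resection the 7 became 14 with DESeq2, 15 without the filter, 23 with voom, and 0 to 8 with a library left out. For P10 baseline against P2 sham the 11 became 25 with DESeq2, 18 with total count scaling, 23 without the filter, 27 with voom, 17 with the replicate block, 0 with only the groups compared, and 3 to 19 with a library left out. Among all genes tested, the 102 called lower in this last comparison became 402 with DESeq2, 189 with total count scaling and 282 without the filter. They became 621 with voom, 158 with the replicate block and 0 with only the groups compared. The cause of these shifts was not tested. The fit of only the groups compared was not run for the windows, which use every group. Pold2 changed sign, from 0.31 to -0.0238 at baseline without P10 baseline replicate 3, where leaving out a library gave -0.0238 to 0.72, and over the windows from -0.01 to 0.0195 without the filter and 0.0341 with voom, with -0.132 to 0.121 when a library was left out. The share of genes with a promoter match was 18.4% with TTTCCCGC alone. Medians of the members kept their sign in every alternative of the age comparisons. Among all genes, the count called lower at baseline was 271, and 637 with DESeq2, 483 without the filter, 125 with only the groups compared, 439 with the replicate block, 448 with total count scaling and 1954 with voom. It was 78 and 95 without P10 baseline replicates 2 and 3, 557 without P10 baseline replicate 1, and 102, 137 and 160 without P2 baseline replicates 1, 2 and 3, so the share of all genes called at baseline also depends on single libraries. The 38 of all genes called lower between the resected groups became 195 with DESeq2, 219 without the filter, 418 with voom, 140 with only the groups compared, 62 with the replicate block, 8 without P2 resected replicate 2 or 3, 9 without P10 resected replicate 3 and 24 without P10 resected replicate 1. They became 29 without P2 resected replicate 1 and stayed at 38 without P10 resected replicate 2. The 266 between the sham groups became 612 with DESeq2, 467 without the filter, 66 with only the groups compared, 158 and 150 without P10 sham replicates 1 and 3, and 168 without P2 sham replicate 3. The 1034 over the windows became 2407 with voom, 1725 with total count scaling and 1558 without P10 baseline replicate 1. Total count scaling also moved the split of all genes called lower and higher, from 271 and 438 to 448 and 298 at baseline, from 266 and 249 to 324 and 182 after sham surgery, from 38 and 101 to 51 and 79 after resection, and from 1034 and 1149 to 1725 and 823 over the windows. The deviations from group means of libraries with the same replicate number had correlations of -0.135 to 0.378 (median 0.0466, 45 pairs), against -0.285 to 0.208 (median -0.0248, 90 pairs) for different numbers. As a hint of pairing, 10 of 18 libraries correlated best with one of their own number, but not every pair was above 0.1 and no label ties the numbers, so they were not taken as pairs. The block moved no other count of members by over 1.5 times. Of the members, Orc1, Cdc6 and Mcm10 had libraries without a count, which limits what their folds can show.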
